A study of Homo sapiens with 6 samples.

Results

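Aminoacyl-tRNA synthetases are the enzymes that join each amino acid to its transfer RNA, the step that fixes what a codon means. Most amino acids have 1 nuclear gene for the cytosolic enzyme and another, with a symbol ending in 2, for the enzyme that works inside mitochondria. In animals a group of the cytosolic enzymes is held together by scaffold proteins in the multisynthetase complex, and the others work alone or in pairs of subunits. Skin keratinocytes draw on these enzymes as every protein-making cell does, and several of their genes are known targets of the transcription factor ATF4, which responds to amino acid shortage.

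The set described here is a fixed list of 35 gene symbols, 19 of cytosolic and 16 of mitochondrial synthetases, chosen by name. Of these, 33 were found among the 21961 symbols of the gene tables. SARS2 and VARS2, the mitochondrial enzymes for serine and valine, were not analysed here. The cells were HaCaT, a line of spontaneously immortalised human keratinocytes, with 3 libraries titled Nvs and 3 titled mod. The design text sets UVB-irradiated cells that received BVNV against cells that received UVB alone, and the title speaks of nanovesicles from beet. The labels of single libraries do not match it in full, since Nvs libraries carry the treatment label control with no mention of UVB or BVNV, and mod libraries the label UV-induced. No dose or time of irradiation is given in the labels. The groups are therefore called Nvs and mod, and every fold change is Nvs over mod. The labels do not say that the replicates of a group came from separate cultures, so p-values measure the spread between libraries, which may be technical.

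Total counts were 41120100 to 44080800 in Nvs and 45637000 to 51369600 in mod. Transcripts of the mitochondrial genome took 52.6% ± 0.751 of counts in Nvs and 30.5% ± 0.817 in mod (SD, n = 3 each). With those transcripts left out of the counts and totals and the scaling recomputed, all 32 tested synthetases kept their direction and their side of the threshold. Both fits place the typical gene near a change of 0 (medians −0.012 and −0.025), so this comparison could hardly move them. Levels are CPM (counts scaled to a common library size) after TMM scaling, which places the typical gene near a change of 0. Scaled by library total instead, the median of all tested genes lay at −0.77 on the log2 scale, so "rose" and "fell" below mean relative to the typical gene. In bulk RNA, a change in the number of cells and a change of RNA per cell cannot be told apart. Of 8 keratinocyte markers, 4 rose and 2 fell, beside 22.8% and 20.5% over all tested genes. The differentiation keratins KRT10 (log2 fold change 1.17) and KRT1 (0.61) rose, as did SFN (1.14) and the basal keratin KRT14 (0.63), while the adhesion genes COL17A1 (−0.56) and DSG3 (−0.25) fell. KRT5, also a basal keratin, had 6968 CPM in Nvs and 7258 CPM in mod and was not called, nor was TP63 (0.07). The part of these markers in the synthetase results was not tested. Markers of other cell types were low. The highest, COL1A1, had 9.07 CPM in Nvs and 10.8 CPM in mod and was not called. The 5 of 7 fibroblast markers that were analysed summed to 292 to 328 reads a library in Nvs and 595 to 809 in mod, nearly all from COL1A1. The 4 of 6 melanocyte markers summed to 105 to 199 reads in Nvs and 257 to 321 in mod, and the 6 of 7 markers of leukocytes and endothelium to 130 to 161 in Nvs and 168 to 231 in mod. COL3A1, PDGFRA and TYRP1 had 0 reads in every Nvs library and at most 6 in any mod library. COL1A2, THY1, TYR, DCT and PTPRC were not analysed here.

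Synthetase mRNAs moved in both directions between Nvs and mod, and by modest amounts. Of 32 that passed the filter on low counts, 5 rose and 12 fell in Nvs at an edgeR adjusted p under 0.05 (Benjamini-Hochberg over 14617 genes), and 15 were not called. Over all tested genes, 43.3% were called, with 22.8% higher and 20.5% lower. The median log2 fold change of the 32 was −0.16, against −0.01 for all tested genes, and their values ran from −0.64 for LARS2 to 0.84 for FARSA. No synthetase reached a change of 2-fold, a size that 12.7% of all tested genes reached. The 3 Nvs libraries lay wholly above the 3 mod libraries for 7 synthetases and wholly below for 15, where 53.6% of all tested genes separated in either direction. These counts describe the list, and no test of the list was made.

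The median log2 fold change was −0.13 over 18 tested cytosolic genes and −0.17 over 14 tested mitochondrial genes. With 1 library left out at a time these medians ran from −0.18 to −0.12 and from −0.23 to −0.079. Among the cytosolic genes 4 rose, 8 fell and 6 were not called. Among the mitochondrial genes 1 rose, 4 fell and 9 were not called. Summed over each class on the TMM scale, cytosolic synthetases had 1412 ± 23.5 CPM in Nvs and 1524 ± 5.06 CPM in mod, and mitochondrial synthetases 293 ± 9.43 CPM in Nvs and 346 ± 5.48 CPM in mod (SD, n = 3 each). For every 100 cytosolic synthetase reads a library held 20.7 ± 0.861 mitochondrial ones in Nvs and 22.7 ± 0.291 in mod. Neither class overlapped between groups on these summed scales.

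**Figure D1:**
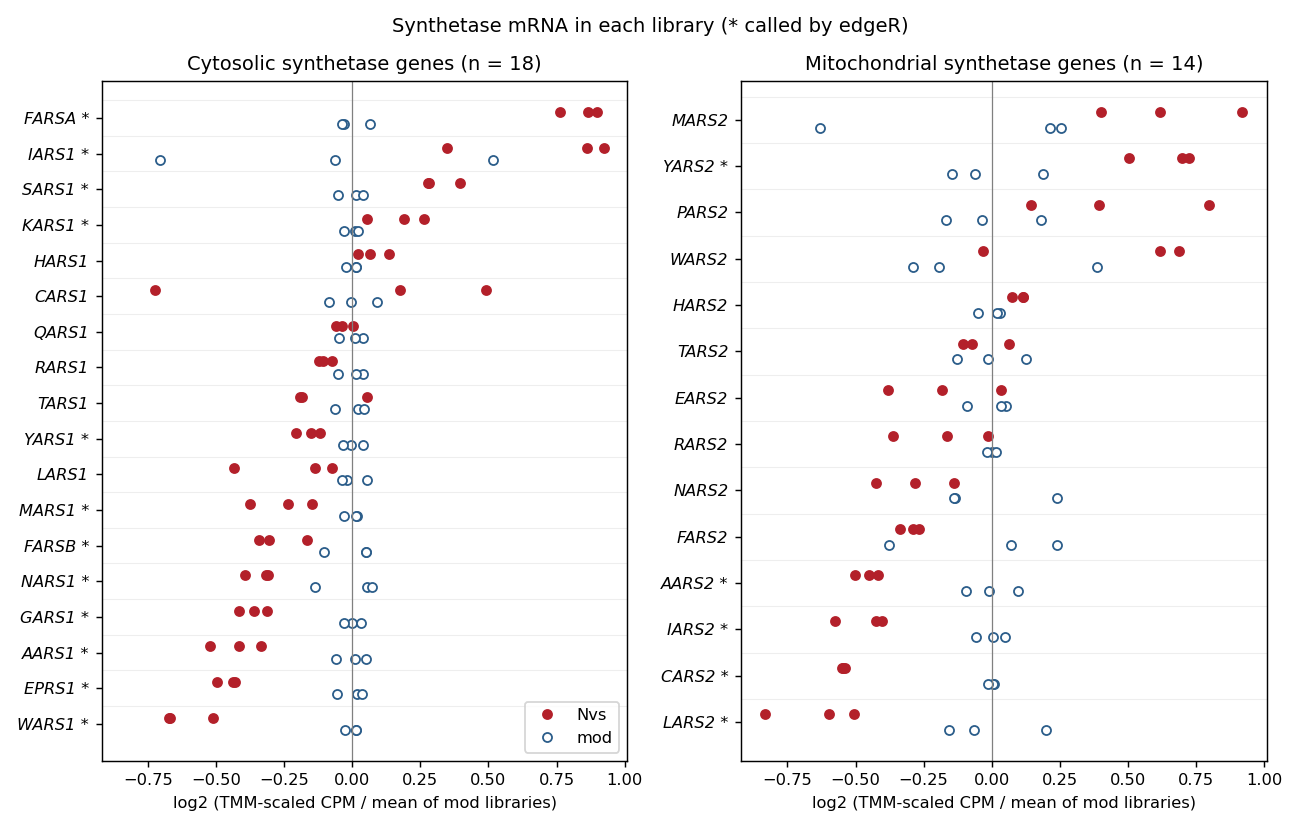
Level of each tested synthetase mRNA in each library, as log2 of its TMM-scaled CPM over the mean of the mod libraries, with cytosolic genes on the left and mitochondrial genes on the right. Filled points are Nvs and open points mod, and an asterisk marks a gene called by edgeR; FARSA stands at the top of the cytosolic genes and WARS1 at the bottom, and IARS1, CARS1 and MARS2 show libraries of 1 group far apart.

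The largest rise of all was in FARSA, and it was not shared by its partner. FARSA (chr19:12922479-12933711, RefSeq on GRCh38.p14) encodes the catalytic alpha subunit and FARSB (chr2:222566899-222656092) the beta subunit of cytosolic phenylalanyl-tRNA synthetase, which assembles from equal numbers of both. FARSA had 118, 110.3 and 121 CPM in Nvs, against 68.0, 63.6 and 63.4 CPM in mod. It was 1.79-fold higher in Nvs (log2 fold change 0.84 ± 0.06 SE, edgeR adjusted p = 9.77e-08), and the groups lay far apart.

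FARSB went the other way. It had 23.8, 26.2 and 23.2 CPM in Nvs, against 30.4, 27.4 and 30.4 CPM in mod, without overlap. It was 1.21-fold lower in Nvs (log2 fold change −0.27 ± 0.09 SE, edgeR adjusted p = 0.0246). Within each library, which needs no scaling between libraries, there were 20.1, 23.7 and 19.2 FARSB reads per 100 FARSA reads in Nvs, against 44.8, 43.1 and 48.0 in mod. That ratio differed by −1.11 on the log2 scale (exact permutation p = 0.1, two-sided, the smallest that 3 against 3 libraries allow). On the scale of library totals FARSA was level between groups, at 0.08, and not called, while FARSB stood at −1.03. The FARSB call was also lost when any of Nvs replicate 1, Nvs replicate 3, mod replicate 1 or mod replicate 3 was left out, and the ratio kept its direction each time, between −1.20 and −1.05.

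**Figure D2:**
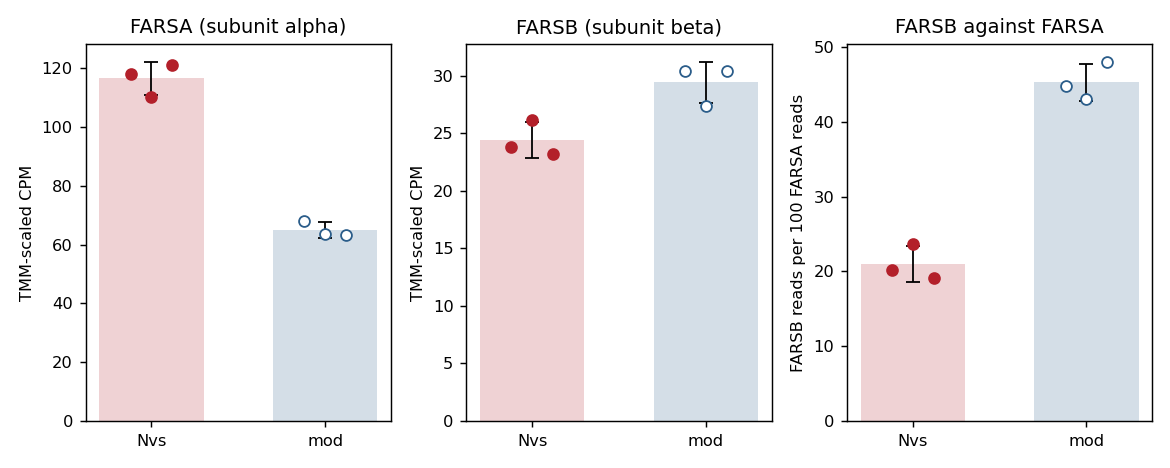
Both subunits of cytosolic phenylalanyl-tRNA synthetase in the 3 Nvs and 3 mod libraries, as TMM-scaled CPM of FARSA and of FARSB and as FARSB reads per 100 FARSA reads. Bars are means, error bars SD (n = 3) and points libraries; FARSA is higher in Nvs, FARSB lower, and the read ratio in Nvs lies between 19.2 and 23.7, below all mod libraries.

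WARS1 showed the largest fall among the cytosolic genes. It encodes tryptophanyl-tRNA synthetase (chr14:100333790-100376327) and is the member of the family known for strong induction by interferon-gamma. It had 119, 119 and 133 CPM in Nvs, against 191, 186 and 191 CPM in mod, with a wide gap between groups. WARS1 was 1.53-fold lower in Nvs (log2 fold change −0.62 ± 0.06 SE, edgeR adjusted p = 1.32e-06).

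Per kb of its longest GENCODE transcript, WARS1 was the most abundant synthetase mRNA in mod, at 61.2 ± 0.993 CPM per kb, ahead of SARS1 at 53.2 ± 1.76, QARS1 at 45.0 ± 1.37 and KARS1 at 42.6 ± 0.827 (SD, n = 3). In Nvs SARS1 led at 66.4 ± 3.14 CPM per kb, followed by FARSA at 56.7 ± 2.74, KARS1 at 47.9 ± 3.48, QARS1 at 44.0 ± 0.954 and WARS1 at 39.9 ± 2.59. KARS1 and QARS1 are neighbours in both orders, and their libraries overlapped in Nvs. The least abundant tested member on this scale was FARS2 in both groups, at 0.637 ± 0.0162 CPM per kb in Nvs and 0.782 ± 0.165 in mod. This order rests on the length used. By deposited FPKM, FARSA led in Nvs with 37.4, 34.8 and 37.8, ahead of SARS1 with 24.3, 24.2 and 26.0. In mod WARS1 had 38.8, 38.4 and 38.4 FPKM and overlapped TARS1 with 36.0, 38.9 and 38.4, and NARS2 was the lowest tested member in both groups.

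Genes that respond to interferon-gamma are given in part only, so no direction of that response is read from them. IDO1, which breaks down tryptophan, rose by 0.61 ± 0.22 (SE) and the guanylate-binding protein gene GBP2 by 0.53 ± 0.10 (SE), both on the log2 scale (edgeR adjusted p = 0.0384 and 0.000797). Of the 5 tested genes reported from that list 2 rose and the others were not called, with a median of 0.06. Over all tested genes 22.8% were called higher and 20.5% lower.

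Enzymes of the multisynthetase complex were split. Of its 7 synthetase genes 2 rose, 2 fell and 3 were not called, with a median log2 fold change of −0.10. Of the 11 tested cytosolic genes outside it, 2 rose, 6 fell and 3 were not called, with a median of −0.16. The difference between both groups of genes was not tested.

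EPRS1 makes the enzyme that charges both glutamate and proline. It had 82.5, 78.9 and 82.2 CPM in Nvs, against 113, 114 and 107 CPM in mod, without overlap. Its fall was 1.37-fold (log2 fold change −0.46 ± 0.05 SE, edgeR adjusted p = 1.41e-05). MARS1, the methionyl enzyme, also fell (−0.25 ± 0.06 SE, edgeR adjusted p = 0.00646). That call was lost at −0.14 when the trend of fold changes on implied transcript length was removed. The implied length is the one that follows from count and FPKM, and can differ widely from the annotated transcripts. The end of MARS1 overlaps DDIT3 in RefSeq, and the strand setting of the counting is not given in the sources used here. DDIT3 had 540 to 645 reads in Nvs and 499 to 656 in mod, where MARS1 had 2034 to 2433 in Nvs and 4543 to 5333 in mod.

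KARS1 encodes the lysyl enzyme of both the cytosol and, through another splice form, mitochondria. It had 107, 124 and 117 CPM in Nvs, against 104, 105 and 101 CPM in mod. The lowest Nvs library lay just above the highest mod library, and the rise was 1.13-fold (log2 fold change 0.17 ± 0.06 SE, edgeR adjusted p = 0.0331). Its call was kept in 5 of 18 alternatives, and was lost when Nvs replicate 2, Nvs replicate 3 or any mod replicate was left out.

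IARS1, the isoleucyl enzyme, was the most uneven member. It had 30.5, 29.3 and 20.5 CPM in Nvs, against 9.86, 23.0 and 15.4 CPM in mod. The highest mod library lay above the lowest Nvs library, so the groups overlapped. The fitted log2 fold change was 0.73 ± 0.24 (SE, edgeR adjusted p = 0.0221), and the call was kept in 9 of 18 alternatives. It was lost when any of Nvs replicate 1, Nvs replicate 2, mod replicate 1 or mod replicate 3 was left out. The DESeq2 Wald test on the same counts did not call IARS1 (adjusted p = 0.127).

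QARS1, which charges glutamine in the cytosol, had 122, 127 and 124 CPM in Nvs, against 131, 123 and 128 CPM in mod. The libraries overlapped and the log2 fold change was −0.03 ± 0.05 (SE). LARS1, the leucyl enzyme known also as a leucine sensor for mTORC1, had −0.21 ± 0.08 (SE, edgeR adjusted p = 0.0652). RARS1, the arginyl enzyme, had −0.10 ± 0.06 (SE), and neither was called.

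The scaffold genes of the complex stood above 0. AIMP1, which binds tRNA and holds the arginyl enzyme, had 40.8 ± 2.30 CPM in Nvs and 30.8 ± 1.86 CPM in mod (SD, n = 3 each), a log2 fold change of 0.40 ± 0.08 (SE, edgeR adjusted p = 0.000950). AIMP2, the central scaffold, had 27.0 ± 0.326 CPM in Nvs and 22.8 ± 1.43 CPM in mod, with 0.24 ± 0.09 (SE, edgeR adjusted p = 0.0368), a call lost at 0.13 when the trend of fold changes on genomic span was removed. EEF1E1, the smallest scaffold, had 0.28 ± 0.29 (SE) and was not called. Both calls turn into lower levels in Nvs when libraries are scaled by their total, at −0.36 for AIMP1 and −0.52 for AIMP2.

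Among the cytosolic enzymes outside the complex, the alanyl, glycyl and asparaginyl genes fell. AARS1 had 88.2, 100.4 and 94.9 CPM in Nvs, against 131, 122 and 127 CPM in mod (log2 fold change −0.42 ± 0.06 SE, edgeR adjusted p = 6.94e-05). GARS1, which makes the glycyl enzyme of both cytosol and mitochondria from 1 gene, had 81.8, 76.0 and 79.1 CPM in Nvs, against 101, 104 and 99.3 CPM in mod (−0.36 ± 0.05 SE, edgeR adjusted p = 0.000115). GARS1 lost its call at −0.12 when the trend on implied transcript length was removed, but that length was 6.62 times its longest GENCODE transcript. NARS1 had 56.6, 56.4 and 53.4 CPM in Nvs, against 63.9, 73.0 and 73.9 CPM in mod (−0.34 ± 0.07 SE, edgeR adjusted p = 0.00118). Each of these genes was lower in all 3 Nvs libraries than in any mod library. YARS1, the tyrosyl enzyme, fell least of the called genes, at −0.16 ± 0.06 (SE, edgeR adjusted p = 0.0324), and lost its call when Nvs replicate 2 or any mod replicate was left out. Part of YARS1 overlaps S100PBP, which had 872 to 1113 reads in Nvs and 1635 to 1833 in mod.

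SARS1 rose against that run. It charges serine, also on the tRNA that later carries selenocysteine. It had 121, 122 and 132 CPM in Nvs, against 101, 96.4 and 103 CPM in mod, without overlap. The rise was 1.25-fold (log2 fold change 0.32 ± 0.06 SE, edgeR adjusted p = 0.000386). Under scaling by library total SARS1 stood at −0.44 and KARS1 at −0.59, so both rises hold relative to the typical gene only.

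Next on the path from SARS1 to selenocysteine, PSTK, the kinase that phosphorylates the attached serine, rose (log2 fold change 1.14 ± 0.26 SE, edgeR adjusted p = 0.00289). SEPSECS, which converts it to selenocysteine, fell (−0.51 ± 0.18 SE, edgeR adjusted p = 0.0384). SEPHS2, which makes the selenium donor, rose (0.39 ± 0.06 SE, edgeR adjusted p = 0.000265). With the trend on genomic span removed, SEPSECS (−0.43) and SEPHS2 (0.07) were no longer called. SECISBP2, which binds the recoding element of selenoprotein mRNAs, had −0.09 ± 0.08 (SE) and was not called. EEFSEC, the elongation factor of this pathway, did not pass the filter.

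CARS1 and TARS1, the cysteinyl and threonyl enzymes, were not called. CARS1 had 10.2, 19.0 and 23.7 CPM in Nvs, against 15.9, 17.9 and 16.8 CPM in mod. The Nvs libraries lay on both sides of the mod libraries, and the coefficient of variation was 38.8% in Nvs and 6.12% in mod. TARS1 had 109 to 129 CPM in Nvs and 119 to 128 CPM in mod. For VARS1, the valyl enzyme (chr6:31777518-31795752), 2 reads were counted in Nvs replicate 2 and 0 in the other 5 libraries, so no level was read. Around it, 42 other coding genes whose starts lie within 1 Mb had a median of 21.5 reads summed over all libraries, and 71.4% of them had under 100 reads. Elsewhere on chromosome 6 the median of 705 coding genes was 1588 reads, and 26.2% had under 100.

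HARS1 and HARS2, the histidyl enzymes of cytosol and mitochondria, are neighbours on chromosome 5 that are read away from each other from start sites only 84 bases apart. HARS1 had 52.2, 53.8 and 56.5 CPM in Nvs, against 51.9, 50.6 and 51.8 CPM in mod (log2 fold change 0.07 ± 0.06 SE, edgeR adjusted p = 0.363). HARS2 had 38.0, 38.0 and 37.0 CPM in Nvs, against 33.9, 35.9 and 35.5 CPM in mod (0.10 ± 0.07 SE, edgeR adjusted p = 0.267). In both genes every Nvs library lay above every mod library by a small margin, and neither was called. With the trend on implied transcript length removed HARS1 stood at 0.30 and was called higher, but that length was 4.07 times its longest GENCODE transcript. Their read ratio overlapped between groups, with 72.8, 70.7 and 65.5 HARS2 reads per 100 HARS1 reads in Nvs, against 65.3, 70.9 and 68.5 in mod. The stretch shared by both starts is shown because it is the one place where a cytosolic and a mitochondrial synthetase have a promoter in common. It is chr5:140691371-140691454 on the minus strand, read in the direction of HARS1, from RefSeq on GRCh38.p14.
HARS1 and HARS2: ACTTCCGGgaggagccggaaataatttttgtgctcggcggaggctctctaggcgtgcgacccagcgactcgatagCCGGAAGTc
Capitals mark the 2 matches, on either strand, to CCGGAAGT, a motif bound by ETS-family factors, which stand at the opposite ends of the stretch in mirrored orientation. This motif was chosen after the sequence was seen. Apart from this pair, it occurred in the promoters of 5 of 27 synthetases (18.5%), namely CARS1, EARS2, NARS1, PARS2 and WARS1, and in 6.19% of 15843 coding promoters of the same length.

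The mitochondrial genes had a median absolute log2 fold change of 0.46 and a median SE of 0.13, against 0.26 and 0.06 for the cytosolic genes, and the difference between the classes was not tested. YARS2, the tyrosyl enzyme (chr12:32746544-32755897), was the 1 member of the class that rose. It had 15.4, 13.5 and 15.7 CPM in Nvs, against 8.56, 10.8 and 9.07 CPM in mod, without overlap. It was 1.57-fold higher in Nvs (log2 fold change 0.65 ± 0.13 SE, edgeR adjusted p = 0.00101), and stood at −0.11 under scaling by library total.

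LARS2 had the largest fall of the whole family. It encodes mitochondrial leucyl-tRNA synthetase (chr3:45388576-45549407). It had 8.92, 9.51 and 7.58 CPM in Nvs, against 15.5, 12.1 and 12.9 CPM in mod, without overlap, and was 1.56-fold lower (log2 fold change −0.64 ± 0.14 SE, edgeR adjusted p = 0.00211). CARS2, a cysteinyl enzyme known also to make cysteine persulfides, had the tightest values of all. Its 59.3, 59.1 and 58.9 CPM in Nvs stood against 86.6, 86.5 and 85.4 CPM in mod (−0.54 ± 0.05 SE, edgeR adjusted p = 2.55e-06). Part of CARS2 overlaps ING1, which had 555 to 650 reads in Nvs and 743 to 950 in mod.

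IARS2 and AARS2, the isoleucyl and alanyl enzymes, fell by similar amounts. IARS2 had 58.5, 59.5 and 52.8 CPM in Nvs, against 75.7, 81.3 and 79.0 CPM in mod (log2 fold change −0.47 ± 0.06 SE, edgeR adjusted p = 5.11e-05). AARS2 had 18.9, 18.4 and 17.8 CPM in Nvs, against 26.9, 23.6 and 25.0 CPM in mod (−0.46 ± 0.09 SE, edgeR adjusted p = 0.00135). Neither gene overlapped between groups.

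The other 9 mitochondrial genes were not called, and for most of them the error is wide. MARS2 (methionine) had a log2 fold change of 0.66 ± 0.26 (SE, edgeR adjusted p = 0.0553), PARS2 (proline) 0.47 ± 0.18 (SE, edgeR adjusted p = 0.0537) and WARS2 (tryptophan) 0.46 ± 0.26 (SE, edgeR adjusted p = 0.174). FARS2 (phenylalanine) had −0.30 ± 0.24, NARS2 (asparagine) −0.28 ± 0.21, EARS2 (glutamate) −0.17 ± 0.13 and RARS2 (arginine) −0.17 ± 0.11, each ± SE on the log2 scale. TARS2 (threonine) had −0.04 ± 0.08 (SE) and was among the better counted of them, with 1535 to 1604 reads in Nvs and 2958 to 3138 in mod. MARS2, WARS2, FARS2 and NARS2 had 80 to 187 reads a library in Nvs and 125 to 328 in mod, which limits what could be called. WARS2 also overlaps the antisense gene WARS2-AS1, with 126 to 256 reads in Nvs and 431 to 562 in mod, more than WARS2 itself in every library but Nvs replicate 2. EARS2 overlaps GGA2, with 933 to 1086 reads in Nvs and 2340 to 2662 in mod, and FARS2 overlaps LYRM4, with 383 to 491 reads in Nvs and 547 to 717 in mod.

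Human mitochondria have no glutaminyl-tRNA synthetase: EARS2 first loads glutamate, and the GatCAB enzyme then converts it to glutamine. Of that enzyme's subunits, GATC rose (log2 fold change 0.45 ± 0.11 SE, edgeR adjusted p = 0.00563), GATB fell (−0.42 ± 0.15 SE, edgeR adjusted p = 0.0364) and QRSL1, the catalytic subunit, was not called (0.09 ± 0.16 SE). MTFMT, which formylates the initiator methionine after MARS2 has loaded it, was not called either (0.17 ± 0.14 SE). TARS3, a cytosolic paralog of the threonyl enzyme and not on the list of 35, had 0.09 ± 0.12 (SE) and was not called.

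The balance between the mRNAs of the mitochondrial and cytosolic enzymes for 1 amino acid can be read within a library, free of any scaling between libraries. Of 15 pairs with both members tested, the median difference of the log2 ratio was 0.03, with 8 above 0 and 7 below. Each pair was tested by an exact two-sided permutation test over the 6 libraries, whose smallest possible p is 0.1, so none could pass 0.05. The smallest adjusted value seen over the 15 pairs was 0.214. The values are therefore a description.

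For tyrosine there were 20.1, 18.7 and 21.0 YARS2 reads per 100 YARS1 reads in Nvs, against 10.3, 12.7 and 11.2 in mod, a difference of 0.81 on the log2 scale of the FPKM ratio. For methionine there were 7.69, 6.62 and 6.29 MARS2 reads per 100 MARS1 reads in Nvs, against 2.34, 4.22 and 4.47 in mod (0.95). For proline there were 10.1, 13.9 and 8.49 PARS2 reads per 100 EPRS1 reads in Nvs, against 6.36, 5.41 and 5.25 in mod (0.91). In these pairs the mitochondrial share was higher in every Nvs library. The tryptophan pair had the largest positive difference (1.08), with 4.24, 4.05 and 2.30 WARS2 reads per 100 WARS1 reads in Nvs, against 1.43, 2.20 and 1.34 in mod, and its groups almost touched.

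In the other direction, there were 2.03, 2.29 and 2.05 FARS2 reads per 100 FARSA reads in Nvs, against 5.28, 5.01 and 3.69 in mod, a difference of −1.12. Set against FARSB in place of FARSA, the FARS2 ratio had a difference of −0.00 and overlapping groups, so the direction of the phenylalanine pair turns on which cytosolic subunit is used. There were 17.2, 17.6 and 18.0 LARS2 reads per 100 LARS1 reads in Nvs, against 27.6, 20.5 and 23.3 in mod (−0.42). The isoleucine pair had −1.26, with 192, 203 and 258 IARS2 reads per 100 IARS1 reads in Nvs, against 767, 353 and 514 in mod, and rests on the uneven IARS1. The pairs for alanine (−0.03), cysteine (−0.53), histidine (0.03), asparagine (0.07), arginine (−0.08), threonine (0.07) and glutamate (EARS2 over EPRS1, 0.28) overlapped between groups.

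**Figure D3:**
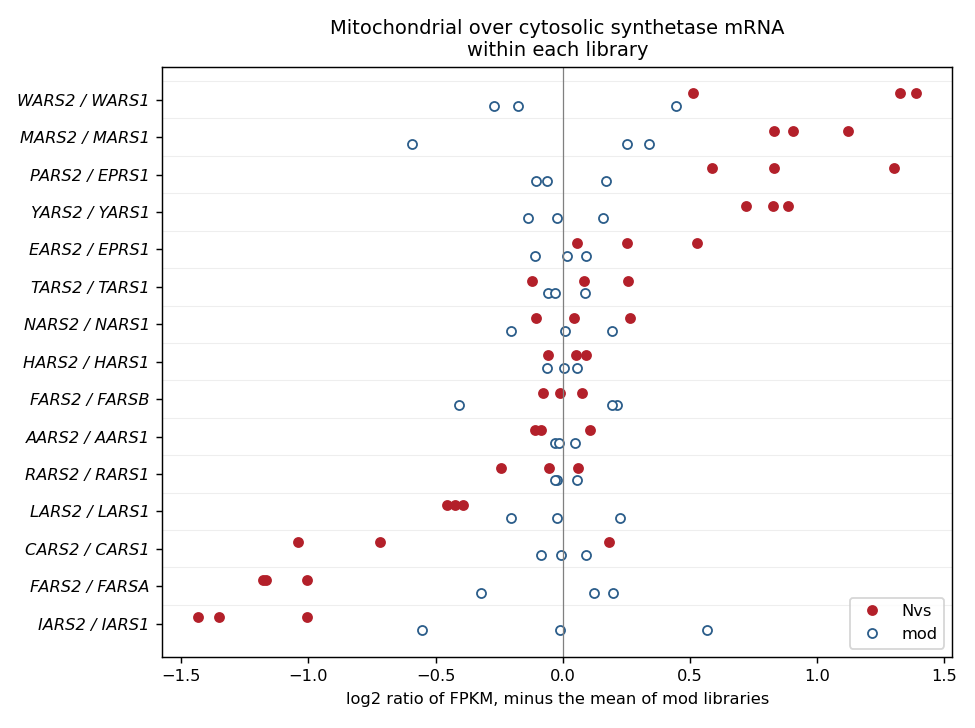
Log2 ratio of mitochondrial over cytosolic synthetase FPKM in each library for 15 pairs, minus the mean of the mod libraries; filled points are Nvs and open points mod. The WARS2, MARS2, PARS2 and YARS2 pairs lie to the right in all Nvs libraries, the IARS2, FARS2 over FARSA and LARS2 pairs to the left, and the others overlap.

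Fold changes of the synthetases ran with the length of genome that the gene spans, as they did for coding genes in general. Over 32 synthetases the Spearman correlation of log2 fold change with genomic span was −0.50, and over 12340 tested coding genes −0.40; all points share the same 6 libraries, and both are descriptions. The 5 synthetase genes under 10 kb had a median of 0.47, where coding genes of that span had 0.32. From 10 to 30 kb the medians were −0.04 for 9 synthetases and 0.09 for coding genes, and from 30 to 100 kb −0.24 for 14 synthetases and −0.12 for coding genes. Over 100 kb they were −0.29 for 4 synthetases and −0.32 for coding genes.

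Measured from the curve of genes of like span, 11 synthetases lay above and 21 below. IARS1 stood 0.92, FARSA 0.70, WARS2 0.69 and YARS2 0.48 above it on the log2 scale, and AARS2 −0.57, WARS1 −0.54, NARS1 −0.38 and CARS2 −0.38 below. FARS2, with the longest span of 521.6 kb, and LARS2, with 160.8 kb, lay at 0.18 and −0.34. With that trend taken out of the fit, FARSB, KARS1, YARS1 and LARS2 lost their calls and QARS1 and WARS2 gained one. Among the companion genes named here AIMP2, GATB, SEPSECS, SEPHS2, TRMT10C and IDO1 also lost theirs. The part of span in these changes was not otherwise tested.

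**Figure D4:**
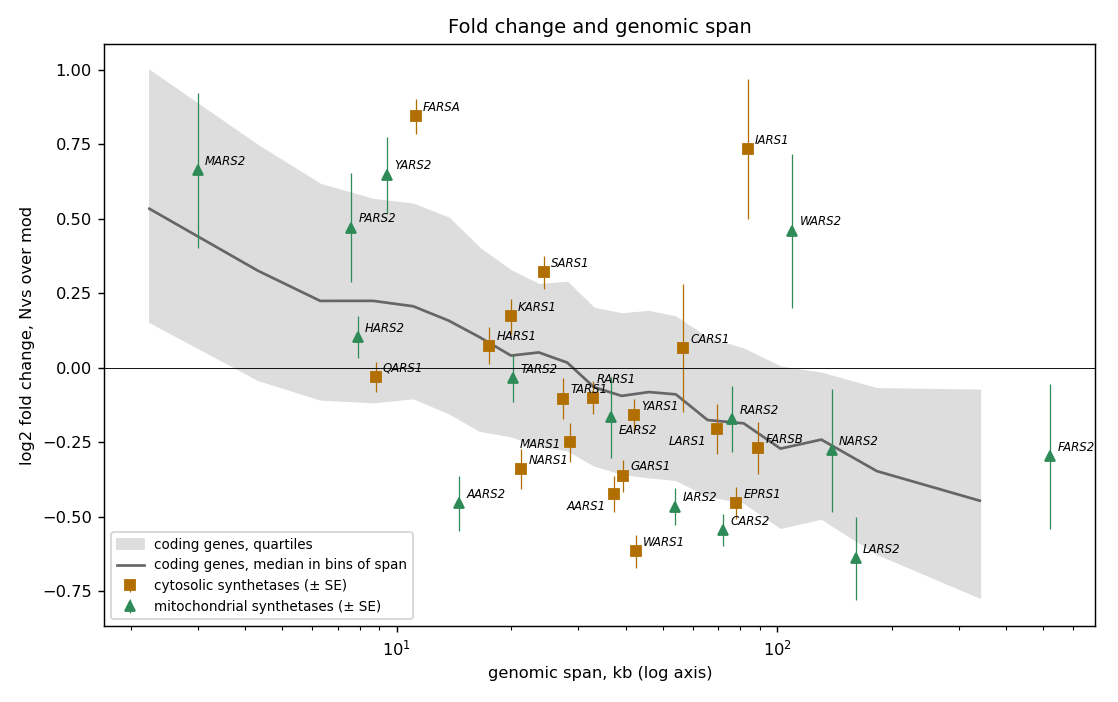
Log2 fold change of Nvs over mod against genomic span in kb, on a log axis, for 18 cytosolic (squares) and 14 mitochondrial (triangles) synthetases with SE bars. The grey line is the median and the band the quartiles of coding genes in bins of span; FARSA, IARS1 and WARS2 are among those above the band, and WARS1 and AARS2 are among those below it.

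ATF4 is known to act on synthetase genes through a composite element, and ATF4 mRNA itself was higher in Nvs. It had 389 ± 12.0 CPM in Nvs and 194 ± 9.42 CPM in mod (SD, n = 3 each), a log2 fold change of 1.01 ± 0.05 (SE, edgeR adjusted p = 8.63e-09). DDIT3, a stress factor made downstream of it, rose by 1.03 ± 0.13 (log2, SE, edgeR adjusted p = 2.67e-05), and EIF2AK4, the kinase that senses uncharged tRNA, by 0.65 ± 0.06 (log2, SE, edgeR adjusted p = 2.25e-06). Of 10 tested genes of the amino acid response 5 rose and 2 fell, with a median of 0.22, beside 22.8% higher and 20.5% lower over all tested genes. The falls were in VLDLR (−2.36 ± 0.38 SE, edgeR adjusted p = 0.000192) and EIF2AK3 (−0.51 ± 0.12 SE, edgeR adjusted p = 0.00347). VLDLR had only 11 to 17 reads in Nvs and 103 to 149 in mod. ASNS, the asparagine synthetase gene that is a classical ATF4 target, had 16 to 33 reads in Nvs and 47 to 79 in mod and was not called (−0.37 ± 0.46 SE), nor was TRIB3 (0.03 ± 0.10 SE). ASNS and TRIB3 were picked for their role after their values were seen, and VLDLR and EIF2AK3 as the members that fell.

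The element TGATGNAA was searched on both strands from 250 bases before to 50 bases after the start of each gene. It was present in 7 of 29 tested synthetases with a RefSeq promoter (24.1%), and in 401 of 15843 coding promoters of the same length (2.53%). Its stretches are shown because, on the TMM scale, some genes that carry it were called higher and others lower. Each is from RefSeq on GRCh38.p14, written on the strand that reads TGATGNAA, with the match in capitals, and the stretches were chosen after the matches were seen.
AARS1, chr16:70289676-70289703, plus strand: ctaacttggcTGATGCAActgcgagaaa
CARS1, chr11:3057408-3057435, plus strand: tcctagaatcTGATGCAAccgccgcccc
IARS1, chr9:92293693-92293720, plus strand: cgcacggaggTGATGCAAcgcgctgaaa
MARS1, chr12:57488054-57488081, minus strand: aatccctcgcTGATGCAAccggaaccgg
NARS1, chr18:57621805-57621832, minus strand: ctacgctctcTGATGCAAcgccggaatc
TARS1, chr5:33440957-33440984, minus strand: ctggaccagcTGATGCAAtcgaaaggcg
YARS2, chr12:32756077-32756104, minus strand: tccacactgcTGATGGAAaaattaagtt
All but YARS2 share the letters TGATGCAA, and YARS2 has TGATGGAA. Counted along the gene from the start in the promoter table, the match begins at −187 in AARS1, −2 in CARS1, −13 in IARS1, −4 in MARS1, 15 in NARS1, 3 in TARS1 and −197 in YARS2. For TARS1 that start lies inside the annotated span of the gene, downstream of its first base.

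Of these 7 genes, IARS1 (0.73) and YARS2 (0.65) rose, AARS1 (−0.42), NARS1 (−0.34) and MARS1 (−0.25) fell, and CARS1 (0.06) and TARS1 (−0.10) were not called, all as log2 fold changes. IARS1 overlapped between groups and was not called by the DESeq2 Wald test (adjusted p = 0.127), and YARS2 is the carrier with TGATGGAA. Scaled by library total, all 7 lay below 0, where the median of all tested genes was −0.77. IARS1 then stood at −0.03, YARS2 at −0.11 and the others from −1.18 to −0.70. FARSA, the gene with the largest rise, had no match in its window. A match describes letters in this window and not the binding of ATF4.

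Other motifs searched in the same way were that of NRF1, a regulator of nuclear genes for mitochondria, and the E-box CACGTG. The first was found in 6 of 29 synthetases (20.7%) and 8.58% of coding promoters, in FARSB, IARS2, MARS2, PARS2, SARS1 and TARS1. The E-box was found in 4 of 29 (13.8%) and 8.88%, in CARS2, EARS2, IARS1 and MARS2. Matches of different motifs never overlapped, and LARS1, YARS1 and AARS2 had no entry in the promoter table.

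The companion lists hold the scaffolds, the mitochondrial tRNA-dependent steps, proofreading, selenocysteine, TARS3, tRNA maturation and export, tRNA modification and the amino acid and interferon-gamma responses. Over all these lists, of 83 tested genes 34 rose and 11 fell in Nvs, beside 22.8% and 20.5% over all tested genes. Among 21 genes of tRNA maturation and export 8 rose and 3 fell, with a median log2 fold change of 0.16. POP7 and RPP38, protein subunits of RNase P, rose by 0.96 ± 0.09 and 0.78 ± 0.15 (log2, SE, edgeR adjusted p = 2.04e-06 and 0.000743). TRMT10C, a subunit of the mitochondrial RNase P, rose by 0.45 ± 0.10 (log2, SE, edgeR adjusted p = 0.00204). XPOT, which exports tRNA from the nucleus and was picked for that role after its value was seen, fell (−0.30 ± 0.07 SE, edgeR adjusted p = 0.00394).

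Among 32 genes of tRNA modification 13 rose and 4 fell, with a median of 0.04. CTU1, which thiolates the wobble uridine, had 62.3 ± 7.21 CPM in Nvs and 16.5 ± 3.34 CPM in mod (SD, n = 3 each), a log2 fold change of 1.92 ± 0.13 (SE, edgeR adjusted p = 6.03e-08). ADAT3, a subunit of the adenosine deaminase that makes wobble inosine, rose by 1.52 ± 0.15 (log2, SE, edgeR adjusted p = 3.23e-06), and TRMT61A, the catalytic subunit of a tRNA adenosine methyltransferase, by 1.28 ± 0.10 (log2, SE, edgeR adjusted p = 3.67e-07). These changes exceed any of the synthetases in size. Of the genes that remove wrongly attached amino acids, AARSD1 rose (0.75 ± 0.21 SE, edgeR adjusted p = 0.0103), while DTD1 (−0.10 ± 0.14 SE) and DTD2 (0.21 ± 0.26 SE) were not called. Scaled by library total, 4 of the 83 companion genes were called higher and 57 lower, beside 589 higher and 9938 lower of all 14617 tested genes.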

How the data were processed

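Gene counts were deposited by the authors as 1 table with a row per symbol. FPKM values of the same symbols were deposited by the authors as a second table, scaled by library total and by a length for each gene that is not always a transcript length. Per the submitters' processing notes the genome build was hg38; the sources used here name no aligner, counter, annotation or strand setting. TRIzol extraction, poly(A) selection and strand-specific libraries are named per the labels' protocols.

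Counts were tested in R 4.3.3 with edgeR 4.0.16: filterByExpr (minimum count 10, minimum total 15), TMM scaling, quasi-likelihood F test with the group as sole term, Benjamini-Hochberg over 14617 genes, called at an adjusted p under 0.05. The SE of a log2 fold change is its absolute value over the root of F. The fit was tested on simulated data that were not built with a mitochondrial share differing between groups. That test therefore does not bear on the choice of scaling. Alternatives used limma 3.58.1 on log2(FPKM + 0.1) or log2(FPKM + 1) and DESeq2 1.42.0. Ratios of genes were taken as FPKM ratios within a library. Levels per kb use the longest transcript of GENCODE release 29, since the length implied by count and FPKM was 0.991 to 9.74 times that. The trend on implied transcript length used the length implied by count and FPKM. Promoters and spans are from RefSeq on GRCh38.p14. Replicate pairs differed beyond counting noise, with a chi-square per degree of freedom of 12.0 to 15.9.

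The members and companion lists were chosen with earlier results of these data known. All 35 members are named. CPM in every library is given for up to 6 cytosolic and 4 mitochondrial called genes of largest change in each direction and for HARS1, HARS2, QARS1, KARS1, GARS1 and EPRS1; of a companion list, all members where it had 5 or fewer and otherwise up to 3 with the smallest adjusted p. CARS1 was added after its values were seen. Some companion genes are not reported here and are not in the counts of their lists.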

Additional observations from a re-analysis of the deposited data

How the results depend on the processing

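Scaling decides the direction of most rises. Of 11 synthetases above 0, 10 turned below 0 when scaled by library total, and FARSA stood at 0.08 and lost its call. Among the companion genes named here, PSTK (0.38), DDIT3 (0.27), POP7 (0.19) and RPP38 (0.017) stayed above 0 and lost their calls. ATF4, CTU1, TRMT61A and ADAT3 kept theirs. Scaled by library total, 0 cytosolic and 0 mitochondrial synthetases were called higher in Nvs and 16 and 10 lower, with medians of −0.89 and −0.93, and 4 companion genes were called higher and 57 lower. Of all 14617 tested genes, 589 were called higher and 9938 lower on that scale, with a median of −0.77. Among synthetases the log2 fold change then turned for CARS1 (−0.70), HARS1 (−0.69), IARS1 (−0.029), KARS1 (−0.59), SARS1 (−0.44), HARS2 (−0.66), MARS2 (−0.10), PARS2 (−0.29), WARS2 (−0.30) and YARS2 (−0.11). It also turned for AIMP1 (−0.36), AIMP2 (−0.52), EEF1E1 (−0.48), GATC (−0.30), QRSL1 (−0.67), MTFMT (−0.59), TARS3 (−0.67), DTD2 (−0.55), AARSD1 (−0.0065), SEPHS2 (−0.37), TRMT10C (−0.31), EIF2AK4 (−0.10), GBP2 (−0.22) and IDO1 (−0.15). With limma on log2(FPKM + 0.1), which scales the same way, 0 and 0 were higher, 16 and 10 lower and the medians −0.88 and −0.82; CARS1 (−0.72), HARS1 (−0.67), KARS1 (−0.59), SARS1 (−0.44), HARS2 (−0.65), MARS2 (−0.057), PARS2 (−0.30), WARS2 (−0.27) and YARS2 (−0.11) turned, also with no filter (15 cytosolic lower). With log2(FPKM + 1) the medians were −0.82 and −0.51, and the same 9 genes stood at −0.46, −0.54, −0.57, −0.42, −0.59, −0.042, −0.23, −0.14 and −0.091. Of all 14617 tested genes, limma called 620 higher and 10097 lower with log2(FPKM + 0.1), and 619 and 10100 with log2(FPKM + 1). With no filter it called 559 higher and 9774 lower of 21961.

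A threshold of at least 1.5-fold left 2 cytosolic genes higher and 1 lower, and 1 mitochondrial gene higher (YARS2) and 1 lower (LARS2). Over all 14617 tested genes it left 1751 higher and 1286 lower. Without a filter on low counts 3 mitochondrial genes were called higher, and with at least 50 counts in 3 libraries 2. With the trend on genomic span removed, the cytosolic median was −0.075 and 2 mitochondrial genes were called higher. Of the companion genes, 25 were then called higher and 7 lower, against 34 and 11 in the main fit. Of all 14617 tested genes, 3143 were then called higher and 2475 lower, against 3337 and 2991. HARS1 (−0.0069), FARS2 (0.18), HARS2 (−0.080), RARS2 (0.00063), DTD1 (0.22) and SECISBP2 (0.010) turned, as did the ratios FARS2 to FARSB (0.25), HARS2 to HARS1 (−0.073) and RARS2 to RARS1 (0.060). Calls were then lost for FARSB (−0.070), KARS1 (0.12), YARS1 (−0.079), LARS2 (−0.34), AIMP2 (0.13), GATB (−0.22), SEPSECS (−0.43), SEPHS2 (0.070), TRMT10C (0.21) and IDO1 (0.50). With the trend on implied transcript length removed, 5 cytosolic genes were called lower and the cytosolic median was −0.059. LARS1 (0.059), YARS1 (0.012) and RARS2 (0.076) then turned. FARSB (−0.17), GARS1 (−0.12), KARS1 (0.15) and MARS1 (−0.14) lost their calls, and HARS1 (0.30) and RARS1 (−0.17) gained one. The causes were not tested.

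Leaving out 1 library gave 2 to 4 cytosolic genes higher (2 without Nvs replicate 2, mod replicate 1 or mod replicate 3), a cytosolic median of −0.18 to −0.12, a mitochondrial median of −0.23 to −0.079, 1 to 3 mitochondrial genes higher (3 without Nvs replicate 3) and a median ratio difference of −0.034 to 0.058. Ranges that crossed 0 were −0.21 to 0.34 for CARS1, −0.10 to 0.019 for TARS2, −0.16 to 0.48 for EEF1E1, −0.048 to 0.24 for QRSL1 and −0.0011 to 0.12 for TARS3. Ratio differences that crossed 0 were −0.098 to 0.011 for alanine, −0.21 to 0.10 for FARS2 to FARSB, −0.0034 to 0.072 for histidine, −0.034 to 0.16 for asparagine, −0.15 to 0.0032 for arginine and −0.019 to 0.17 for threonine. WARS1, EPRS1, AARS1, NARS1, CARS2, IARS2 and AARS2 were called lower under all 18 alternatives of the fit. Among these alternatives, scaling by library total and the limma fits on FPKM favour calls of lower, with medians of all genes from −0.77 to −0.40. FARSA, SARS1 and YARS2 kept their calls of higher in 14 of 18 and lost them under those fits only, so falls and rises do not compare by this count. The 1.5-fold threshold is apart from these, and of the 7 genes only WARS1 passed it.

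Replicate numbers did not pair the libraries: deviations from the group means correlated at −0.02, −0.01 and −0.02 between same-numbered libraries, and none correlated best with its own number. The fit with the replicate number as a block called 3 cytosolic genes higher and 8 lower, 1 mitochondrial gene higher and 4 lower, and 31 companion genes higher and 11 lower, against 4, 8, 1, 4, 34 and 11 without it, and CARS1 turned to −0.0083.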
